A study of Mus musculus with 18 samples.

Results

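Mouse chromosome 1 held 3446 of the 55401 genes in the mRNA-seq count tables, and 900 of them had at least 10 reads in at least 3 of the 6 mRNA libraries. These 900 genes are described here, beside the 13475 genes of the other autosomes and the 14846 genes of the whole table that met the same minimum. Of the other chromosome 1 genes, 1565 had 0 reads in all 6 libraries and 981 had reads but did not reach the minimum. At the edge of the rule, 19 genes were kept with exactly 10 reads in the library that decided, the 3rd highest, among them Casq1, and 17 with 9 reads there were not kept, among them Efhd1, Hmcn1 and Ifi205. The circular RNAs (circRNAs) of chromosome 1 were taken from the whole-cell circRNA-seq libraries, which listed 781 of them among 10700 in all.

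The libraries came from NIH/3T3 cells, an immortalized mouse embryonic fibroblast line, either wild type (WT) or with an XPO4 knockout (KO) made with CRISPR-Cas9, in which both copies of the gene carry the same edit. XPO4 is an exportin, a carrier of cargo out of the nucleus. There were 3 WT and 3 KO mRNA libraries, and 2 WT and 2 KO whole-cell libraries of circRNAs, prepared after digestion of linear RNA with RNase R. The study's text says nothing on how many KO clones were grown or on separate cultures, so the p-values measure the spread between these libraries, which may be technical.

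The dose of a gene is the number of copies of it in the genome. In aneuploid cell lines the transcripts of a whole chromosome or arm can move together when the number of its copies differs, because most genes make RNA in rough proportion to their copies. NIH/3T3 is known as an aneuploid line whose karyotype varies between stocks and clones. No DNA was measured in the libraries used here, so copy number and transcription per copy cannot be told apart from them. The study also sequenced genomic DNA for its maps of RNA:DNA hybrids, and those libraries were not used.

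The mRNA libraries held from 16974062 to 22057323 counted reads, and the whole-cell circRNA libraries from 50341 to 58165 junction reads. Heading lines inside the mRNA tables name an alignment of the other genotype in each case, and the directions given below follow the sample labels. Xpo4, on chromosome 14, did not settle the matter: its counts ran to 657, 614 and 685 for WT, against 712, 504 and 687 for KO, and it did not pass the test (log2 fold change 0.18 ± 0.11 SE, edgeR quasi-likelihood test, adjusted p = 0.189). The edit need not lower the number of reads over the gene. The fibroblast genes Col1a1, Col1a2, Thy1, Pdgfrb and Vim were at 186 CPM (read counts scaled to a common library size) or more in each library, and of the 10 markers of leukocytes, epithelium and endothelium Cd3e, Epcam and Krt18 were at 0 in all 6. Cdh1, Cd79a and Pecam1 had 1 to 12 reads in each library and Cdh5 and Kdr 0 to 2, while the leukocyte genes Ptprc and Cd68 had 21 to 108 and 52 to 140. The genotypes also differed on the Y chromosome. Of its 7 genes with enough reads 6 were higher in KO, and Ddx3y, Eif2s3y, Kdm5d, Uty and Gm29650 had 0 reads in all 3 WT libraries. In the KO libraries Ddx3y, an RNA helicase gene of the Y, had 594, 506 and 511 reads and Kdm5d, a histone demethylase gene, 154, 136 and 147. Nearly all Y reads in WT were those of Gm47283, with 1608, 1592 and 1885, against 1073, 1641 and 905 in KO. The part of this difference between the cells in the results below was not tested.

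Transcripts of chromosome 1 were, on balance, lower in the KO libraries than in the WT libraries. Of the 900 genes, 396 (44.0%) passed the test as lower in KO and 136 (15.1%) as higher (edgeR quasi-likelihood test, Benjamini-Hochberg adjustment over all 14846 genes, threshold 0.05). Over all genes 48.4% passed, 23.4% as lower and 25.0% as higher. The other autosomes had 22.3% lower and 25.5% higher. A log2 fold change under 0 was found for 628 of the 900 genes, or 69.8%, against 49.3% on the other autosomes. The CPM of all 3 WT libraries lay apart from that of all 3 KO libraries, without overlap, for 66% of the chromosome 1 genes and 57.6% of all genes. The minimum itself leans slightly toward genes that differ, since 40 of the 900 genes reached it only through the WT libraries and 9 only through the KO libraries. A minimum on the mean of all 6 libraries kept 877 genes, of which 388 were lower and 130 higher. Both minima were set on unscaled counts, which favors genes that are higher in WT. The WT libraries held 19529104 to 22057323 reads and the KO libraries 16974062 to 17922696.

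The size of the shift was modest and much the same through the middle of the distribution. The median log2 fold change was -0.21 on chromosome 1 and 0.01 on the other autosomes, a difference of -0.22. Taken on its own, the chromosome 1 median is a level 0.865 times that of WT. Between the chromosomes the 25th percentiles differed by -0.26 and the 75th by -0.19 on the log2 scale, the 10th by -0.39 and the 90th by -0.12. When all genes were split into 3 classes by mean CPM, the differences within the low, middle and high class were -0.26, -0.21 and -0.22. These are descriptions of the genes of 1 chromosome, which was chosen with the result known, and they carry no test.

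Chromosome 1 had the lowest median of the 19 autosomes, the highest share of genes lower in KO and the lowest share higher. If the heading lines and not the labels were right, each direction would turn, and chromosome 1 would have the highest median and chromosome 10 the lowest. The nearest medians were those of chromosome 6 at -0.13 and chromosome 15 at -0.12, where 32.8% and 35.8% of genes were lower. The autosome farthest from 0 was chromosome 10, with the opposite sign: its median was 0.45, and 65.8% of its 692 genes were higher in KO. Without chromosome 10 among the other autosomes, the difference of chromosome 1 was -0.20.

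**Figure D1:**
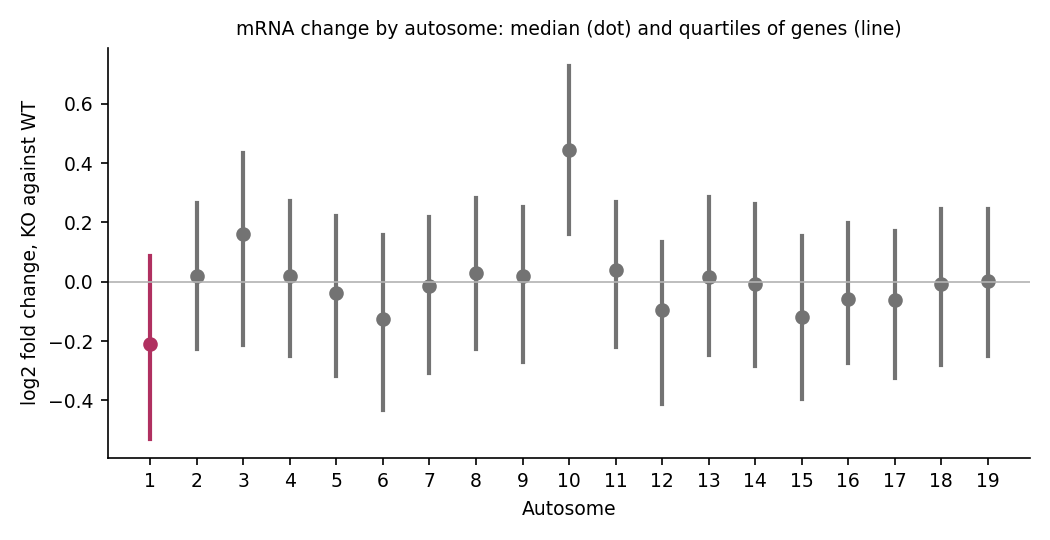
Log2 fold change of mRNA in KO against WT (y axis) for the genes of each autosome (x axis); the dot is the median and the line runs from the 25th to the 75th percentile of genes. Chromosome 1, in red, has the lowest median, -0.21, and chromosome 10 the highest, 0.45.

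The shift can also be set out by library. For every gene the log2 CPM in a library was set against the mean of that gene over the 6 libraries, and the median of these deviations on chromosome 1 was taken relative to that on the other autosomes. WT gave 0.103, 0.117 and 0.0939, and KO gave -0.115, -0.111 and -0.0873. All 3 WT libraries lay above 0 and all 3 KO libraries below, with means of 0.105 ± 0.0115 (SD, n = 3) and -0.104 ± 0.0150 (SD, n = 3).

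The same was seen in the summed reads. Chromosome 1 took 8.32%, 8.20% and 8.15% of the autosomal mRNA reads in WT, against 7.01%, 6.67% and 7.13% in KO. The means were 8.22% ± 0.0876 (SD, n = 3) and 6.94% ± 0.238 (SD, n = 3), a ratio of 0.844, and the groups did not overlap. A few abundant genes weigh on such a share. With Fn1 and Col3a1 left out the means were 7.08% and 5.93%, a ratio of 0.838.

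**Figure D2:**
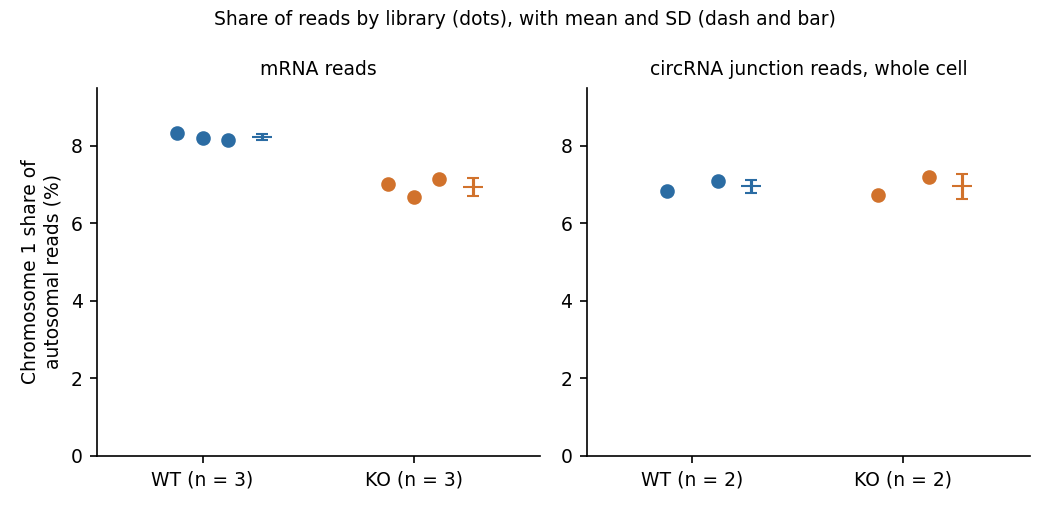
Share of autosomal reads that fell on chromosome 1 (y axis, percent, starting at 0) in each library, for mRNA (left, 3 WT and 3 KO) and whole-cell circRNA junctions (right, 2 WT and 2 KO); dots are libraries, dashes and bars the mean and SD. The mRNA shares are 8.15% to 8.32% in WT and 6.67% to 7.13% in KO, while the circRNA shares overlap between 6.73% and 7.18%.

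Along the chromosome the lower level was widespread but did not reach its first 30 Mb. In 20 windows of 10 Mb, each with at least 10 of the genes, 17 (85%) had a median log2 fold change under that of the other autosomes, against 115 of 229 such windows (50.2%) on those autosomes. In 15 of the 20 windows all 3 KO libraries lay below all 3 WT libraries. Windows of the other autosomes were not compared library by library, so no share stands beside this count. Among single genes of the whole table, 57.6% had no overlap in either direction. Medians of -0.2 or lower relative to the other autosomes were found in 13 of the 20 windows and in 6 of the 229 (2.62%). In the log2 fold change itself, the lowest was the window from 110 to 120 Mb, with 13 genes and a median of -0.46, and that from 190 to 200 Mb followed with 42 genes and -0.40.

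The windows from 10 to 20 Mb and from 20 to 30 Mb went the other way, with medians of 0.26 and 0.49, and in both all 3 KO libraries lay above all 3 WT libraries. The first window, up to 10 Mb, had a median of -0.004 over 25 genes. In the next one, from 30 to 40 Mb, 29 of 62 genes were lower and 1 was higher, Plekhb2 (log2 fold change 0.35). Split at 30 Mb, a boundary chosen after these values were seen, the first 69 genes held 32 higher and 8 lower, with a median of 0.24, and the other 831 held 104 higher and 388 lower, with a median of -0.24. The window from 140 to 150 Mb, with 11 genes, had a median of 0.19, and its libraries overlapped.

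**Figure D3:**
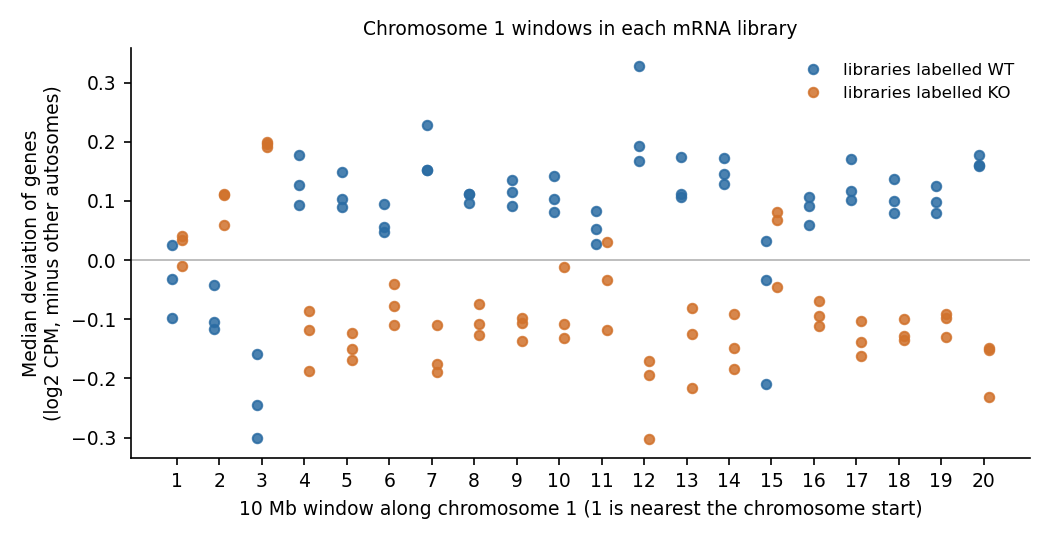
Median deviation of the genes in each 10 Mb window of chromosome 1 from their mean over 6 libraries, in log2 CPM and relative to the other autosomes (y axis), by window (x axis, window 1 at the chromosome start); each dot is 1 library. KO libraries lie below WT libraries in 15 windows and above them in windows 2 and 3.

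A block of 7 neighbouring unprocessed pseudogenes within the first 30 Mb needs to be read apart. Gm28439, Gm10222, Gm28438, Gm28437, Gm10925, Gm28661 and Gm29216 lie side by side at chr1:24611535-24616197 (GRCm38), and all 7 were higher in KO, with log2 fold changes from 0.77 to 1.65. In the GRCm38 genome this stretch matched the mitochondrial genome over 4653 bases with 2 mismatches, an identity of 99.96%, as a nuclear copy of mitochondrial DNA does. All 37 genes annotated on the mitochondrial genome were listed with 0 reads in the 6 libraries. Gm28661, whose sequence is identical to that of mt-Co2, the gene of a cytochrome c oxidase subunit, had 35.2, 46.4 and 46.1 CPM in WT and 142, 131 and 127.5 in KO. Reads of the nuclear copy and of mitochondrial transcripts cannot be told apart here. Without the block the window from 20 to 30 Mb had a median of 0.16 over 14 genes, with 6 higher and 2 lower. The first 30 Mb then held 25 higher and 8 lower of 62 genes, with a median of 0.14. Among the 43 protein-coding genes of the first 30 Mb 23 were higher and 5 lower, and among the 655 beyond it 92 were higher and 324 lower.

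Several genes that rose in the first 30 Mb did so by large factors, and others by small ones. Paqr8, Eya1, Lmbrd1, Atp6v1h and Eloc were picked after their values were seen. Rpl7 was named for its FPKM and Mcm3 comes from a role list. Cpa6, Sulf1 and Jph1, described further below, were named for the size of their rise. Paqr8, a membrane progestin receptor, had 2.21, 2.16 and 1.73 CPM in WT and 10.4, 10.2 and 8.52 in KO, a log2 fold change of 2.26. Eya1, a transcriptional coactivator and phosphatase of organ development, rose from 7.96 to 9.22 CPM in WT to 16.8 to 19.2 in KO. At the smaller end, Lmbrd1, a lysosomal protein of vitamin B12 handling, had 36.1, 39.7 and 35.8 CPM in WT and 51.9, 51.6 and 52.7 in KO (0.49 on the log2 scale). Atp6v1h, a subunit of the vacuolar proton pump, rose by 0.30 and Eloc, a component of elongin ubiquitin ligases, by 0.34. Rpl7 and Mcm3 lie in the same 30 Mb and fell by 0.40 and by 0.21 on the log2 scale.

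The largest changes of single genes were far beyond the shift of the chromosome. Genes were named if they passed the test, if their WT and KO libraries did not overlap and if their mean count was at least 50 in the higher genotype. This held for 445 chromosome 1 genes, 329 lower and 116 higher, and for 42.1% of all genes tested.

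Among the 8 genes with the largest falls were secreted and cell-surface proteins. Chil1, a secreted chitinase-like glycoprotein, had 3564, 3835 and 4376 reads in WT against 30, 44 and 34 in KO. This is 179, 197 and 199 CPM against 1.68, 2.48 and 1.997, and a log2 fold change of -6.54 ± 0.11 SE (edgeR, adjusted p = 4.77e-14). No WT library came near any KO library. Selp, the adhesion receptor P-selectin, had 278, 269 and 318 reads in WT against 33, 33 and 31 in KO, a log2 fold change of -2.93 ± 0.14. Fmod encodes fibromodulin, a small proteoglycan that binds collagen, and had 173, 171 and 221 reads in WT against 32, 33 and 26 in KO, a log2 fold change of -2.41 ± 0.17. A lack of overlap between WT and KO was a condition of naming, so the separation of these genes is no added result.

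The other falls were of intracellular proteins and of transcripts with no known product. Camk1g, a calcium/calmodulin-dependent protein kinase, had 163, 152 and 170 reads in WT against 8, 12 and 10 in KO, a log2 fold change of -3.78 ± 0.21. Crocc2, a relative of the ciliary rootlet protein rootletin, was at 91.1, 85.4 and 86.8 CPM in WT and 17.8, 15.1 and 16.1 in KO, a log2 fold change of -2.43 ± 0.07. Plekha6, which carries a pleckstrin homology domain, had 73, 78 and 86 reads in WT against 1, 2 and 0 in KO. Its reads per library size were 67.8 times higher in WT, with a 95% counting interval of 22.9 to 331. Plekha6 reached the minimum of reads only through the WT libraries. Gm37902 and Gm38372 are unverified transcripts. Their counts spread more: 64, 45 and 41 reads in WT against 6, 0 and 13 in KO for Gm37902, and 226, 187 and 167 in WT against 44, 4 and 65 in KO for Gm38372.

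Chil1 and Fmod lay in a stretch of neighbours that fell. The longest run of consecutive genes that were all lower in KO held 10 of them, at chr1:133619940-134411740, from Gm38394 to Cyb5r1. It was found after the values were seen, and its length was not tested. Prelp, which encodes a leucine-rich proteoglycan of the matrix next to Fmod in this run, had 64.4, 58.1 and 60.4 CPM in WT and 17.8, 16.7 and 16.1 in KO, a log2 fold change of -1.85 ± 0.07. Atp2b4, a plasma membrane calcium pump, had 19.95, 20.9 and 18.2 CPM in WT and 5.60, 3.77 and 6.11 in KO, a fall of 1.93 on the log2 scale. Mybph, a myosin-binding protein of muscle, had 31, 25 and 24 reads in WT against 0 in each KO library. Set against a floor of 3 counts over the KO group, it was 22.9-fold lower in KO, with the counting error of WT left out. Mybph reached the minimum of reads only through the WT libraries. Btg2, an antiproliferative gene in the same run, fell by 0.41. Its first gene, Gm38394, shares exons with Zc3h11a and its counts are uncertain for that reason.

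The 8 largest rises were of genes that were low or near 0 in WT. Pappa2, a metalloproteinase that cleaves insulin-like growth factor binding proteins, had 0, 1 and 0 reads in WT against 263, 228 and 304 in KO. The ratio of reads per library size was 927, with a 95% counting interval of 166 to 36660. Aim2, a sensor of cytosolic DNA that assembles an inflammasome, had 1, 0 and 3 reads in WT against 64, 47 and 58 in KO, with a ratio of 49.3 and an interval of 18.9 to 183. Tnfrsf11a, the receptor RANK, had 1, 3 and 3 reads in WT against 75, 58 and 36 in KO. All 3 genes reached the minimum of reads only through the KO libraries, and a lack of overlap was a condition of naming. Their separation is thus no added result, and the size of the fold rests on a handful of WT reads.

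The other rises started from measurable WT levels. Brinp3, which is known from the nervous system, had 0.702, 0.821 and 0.546 CPM in WT and 10.1, 9.74 and 9.57 in KO, a log2 fold change of 3.83 ± 0.20. Lgr6, a receptor for R-spondins in the Wnt pathway, had 6, 17 and 11 reads in WT against 76, 71 and 73 in KO, a log2 fold change of 2.90 ± 0.30. Sulf1, which removes sulfate groups from heparan sulfate outside the cell, rose by 2.54 on the log2 scale, Cpa6, a secreted carboxypeptidase, by 2.50 and Jph1, a junctophilin that links the plasma membrane and the endoplasmic reticulum, by 2.46. Sulf1, Cpa6 and Jph1 lie in the first 30 Mb. The exons of Pappa2, Brinp3, Jph1, Plekha6 and Selp overlap those of another annotated gene, and reads in such stretches could not be assigned.

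The 6 genes with the highest level per length were all lower in KO. They were ranked by FPKM, the CPM per kilobase of exon, computed from the counts and the exon lengths in the tables. Ptma, which encodes the small acidic nuclear protein prothymosin alpha, stood at 1053 FPKM on average and had 1678, 1818 and 1865 CPM in WT and 1290, 1340 and 1244 in KO, a log2 fold change of -0.47 ± 0.06. Fn1, the matrix glycoprotein fibronectin, stood at 921.5 FPKM. It had 12180, 11130 and 11330 CPM in WT and 10420, 8553 and 11000 in KO, a log2 fold change of -0.21 ± 0.08 (edgeR, adjusted p = 0.0378), and the lowest WT and the highest KO library lay close together. Leaving out any 1 of the 3 WT libraries took the call away, with adjusted p-values of up to 0.149. The ribosomal protein genes Rpl7, Rpl37a and Rpl31 and the elongation factor gene Eef1b2 made up the rest, with falls of 0.40, 0.63, 0.58 and 0.55. All 6 had no overlap between the genotypes.

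Genes of chromosome 1 were then grouped by textbook roles, in 9 lists. The chromosome median of -0.21, with 44.0% lower and 15.1% higher, is the level to read them against, and no list was tested as a list. The share called also rose with the level of a gene. In the high class of mean CPM 55.5% of the chromosome 1 genes were lower and 17.2% higher, and in the low class 33.9% and 12.5%.

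All 11 genes of the translation list were lower in KO, with a median log2 fold change of -0.34. The list holds Mars2, the methionyl-tRNA synthetase of mitochondria, and the 10 genes of cytosolic translation without it had a median of -0.33. Rpl37a, of the large ribosomal subunit, had 859, 934 and 953 CPM in WT and 588, 652 and 531 in KO. Eprs, which charges the transfer RNAs of glutamate and proline, had 368, 376 and 374 CPM in WT and 270, 254 and 276 in KO, a fall of 0.48. The smallest falls of the list, of Bzw1 and Eif5b, were by 0.14 and 0.15 on the log2 scale, and their adjusted p-values in the edgeR test were 0.0423 and 0.0420. Fewer were called when a library was left out: 7 of 11 without WT replicate 1, WT replicate 3 or KO replicate 1, and 8 to 10 without 1 of the others.

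Of 16 genes of splicing and RNA handling 14 were lower and none was higher, with a median of -0.36. They include Cnot9, of mRNA decay, which fell by 0.25. Hnrnpu, a nuclear RNA-binding protein, had 1220, 1215 and 1193 CPM in WT and 900, 860 and 885 in KO, a fall of 0.46. Sf3b1, of the U2 snRNP, fell by 0.33, Dhx9, an RNA helicase, by 0.42 and Ncl, which encodes nucleolin, by 0.40. Nifk, a nucleolar protein, lay at -0.17 and did not pass.

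DNA replication, repair and chromatin had 12 of 16 genes lower, none higher and a median of -0.38. Mcm6, of the replicative helicase, had 324, 338 and 337 CPM in WT and 222, 243 and 224 in KO, a fall of 0.54. Mdm4, a regulator of p53, fell by 0.67, Dtl, a substrate receptor of the CUL4 ubiquitin ligase, by 0.53, Xrcc5, the Ku80 subunit of end joining, by 0.45 and Parp1 by 0.38. Orc2 at 0.02, Nabp1 at 0.21, Ercc5 at -0.14 and Smarcal1 at -0.13 did not pass.

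In the list of mitosis and spindle 9 of 13 genes were lower and 2 higher, with a median of -0.41. Aspm, a protein of the spindle pole, had 176, 159 and 158 CPM in WT and 85.7, 71.4 and 88.6 in KO, a fall of 1.00. Kif14, a mitotic kinesin, fell by 0.78 and Cenpf, a kinetochore protein, by 0.65. The higher genes were Nek7, a kinase, at 0.37 and Tmem63a at 0.55, which is known as a mechanosensitive ion channel and has no known place in mitosis. The lower ones included Ccnt2, a cyclin of transcription elongation, at -0.60 and the antiproliferative gene Btg2 at -0.41, and Ube2t at -0.20, known from DNA crosslink repair, did not pass. Without these 4 the list had 7 of 9 lower, 1 higher and a median of -0.49.

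The extracellular matrix list had 9 of 13 genes lower and none higher, and a median of -0.50. Tnn, which encodes tenascin W, had 54.6, 53.1 and 52.1 CPM in WT and 14.6, 12.2 and 11.7 in KO, a fall of 2.05. Col5a2, a fibrillar collagen chain, fell by 0.67, Lamc1, a laminin chain, by 0.59 and Col6a3 by 0.48. Col3a1, at 380.2 to 396.8 CPM in WT and 368 to 393.2 in KO, lay at -0.02 ± 0.05 and its libraries overlapped. Dpt, Prg4 and Tgfb2 did not pass either.

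Receptors and signalling genes went both ways, with 13 of 27 lower, 7 higher and a median of -0.23. Soat1, an enzyme of cholesterol storage, is among the lower ones, and without it the median was -0.17. Il1r1, the interleukin-1 receptor, had 216.5, 213.4 and 206.4 CPM in WT and 107.2, 98.4 and 108.5 in KO, a fall of 1.02. Rgs4, which shortens G protein signals, fell by 1.25 and Enah, an actin regulator, by 0.90. Against these, Nrp2, a coreceptor of semaphorins and VEGF, had 163, 145 and 151 CPM in WT and 293, 244 and 289 in KO, a rise of 0.85. The neighbours Ptgs2, the cyclooxygenase of inflammation, and Pla2g4a, the phospholipase that releases its substrate arachidonic acid, were higher by 0.65 and 0.49. Ptgs2 stood at 58.6, 60.3 and 58.1 CPM in WT and 90.5, 89.9 and 96.5 in KO.

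The list of interferon-inducible and complement genes had 5 of 8 lower and 2 higher, and Ptprc, among the lower ones, is neither. The median of the list was -0.36. Ifi202b, Ifi203 and Ifi204, members of the interferon-inducible cluster that lies next to Aim2, fell by 0.35, 0.36 and 0.46, while Aim2 rose. Cd55, which protects cells from complement, rose by 1.21. Ptprc, the leukocyte antigen CD45, fell by 1.78 from a low level of 4.78 to 5.41 CPM in WT. Another leukocyte gene, Cd68 on chromosome 11, had mean levels of 5.97 CPM in WT and 3.64 in KO, and the part of other cells in this result was not tested.

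The lists with the smallest medians were mitochondrial respiration and protein synthesis, at -0.11, and the proteasome, COP9 signalosome and ubiquitin ligation, at -0.16. Of the 18 mitochondrial genes 5 were lower and 1 was higher. The higher one was Ndufb3, of respiratory complex I, at 0.35. The 12 that did not pass lay between -0.15 and 0.17 on the log2 scale, among them the chaperonin genes Hspd1 at -0.10 and Hspe1 at 0.14. Idh1, at -0.02, is in the list but encodes a dehydrogenase of the cytosol and peroxisomes, and without it the median was -0.11. Of the 12 genes of the other list 7 were lower, among them Psmd1 of the proteasome by 0.18 and Usp37, a deubiquitinase, by 0.60. Ube2w, a ubiquitin-conjugating enzyme in the first 30 Mb, rose by 0.40. These smaller falls depended on single libraries: without KO replicate 2 there were 11 mitochondrial genes lower, and 3 and 4 genes of the other list were lower without WT replicate 2 and WT replicate 3. KO replicate 2 differed most from its group over all genes. Its chi-square per gene was 10.6 against KO replicate 1 and 12.3 against KO replicate 3, while KO replicates 1 and 3 gave 3.68. Without KO replicate 2, 542 chromosome 1 genes were called, 404 lower and 138 higher, against 532, 396 and 136 with all 6 libraries. The difference of medians from the other autosomes was then -0.225, against -0.217.

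**Figure D4:**
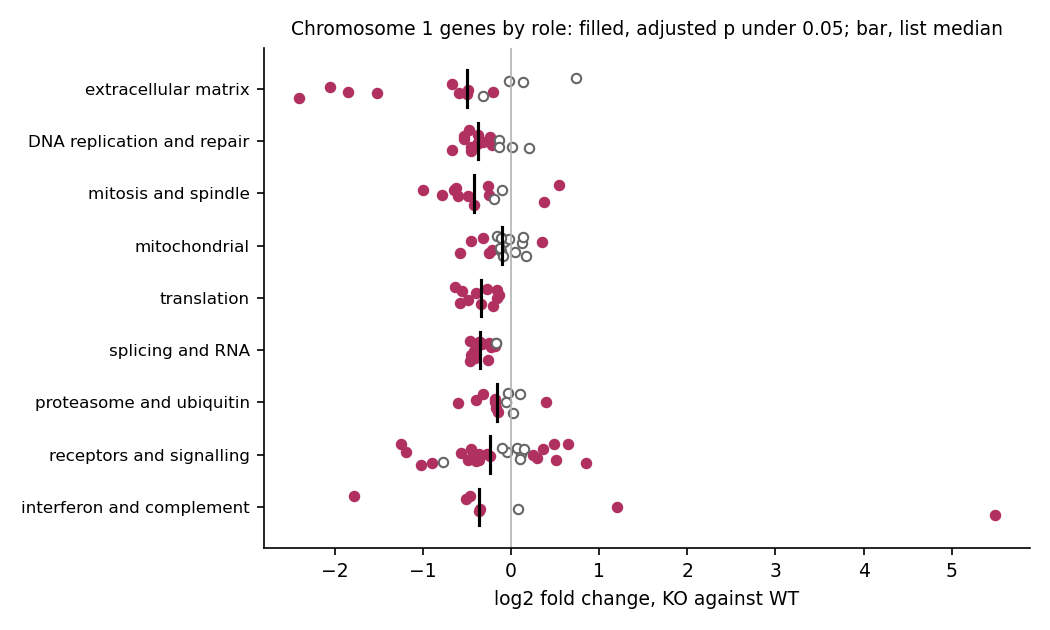
Log2 fold change of mRNA in KO against WT (x axis) for the chromosome 1 genes of 9 role lists (y axis); filled dots passed the edgeR test at adjusted p under 0.05, open dots did not, and bars are list medians. All 11 genes of the translation list, Mars2 of mitochondria included, lie to the left of 0, and the point farthest to the right is Aim2 at 5.49.

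Chromosome 1 also gives rise to circRNAs, closed loops made when the end of an exon is spliced back to the start of an exon upstream. Most stay stable because they have no free ends. Their abundance follows from transcription of the host gene, from the share of transcripts that back-splice and from turnover. The whole-cell libraries listed between 713 and 723 chromosome 1 circRNAs each. Of the 781 in any library, 553 were listed in all 4 and 767 had both ends on exon edges of a transcript in the GENCODE annotation. The median circle held 523 nt of spliced sequence among the 658 with at least 10 reads in sum, which were tested.

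The back-splice junctions of the 6 most abundant circles are shown because reads across these bases are the only ones that were counted. Each run is 30 bases on the transcript strand, read from the GRCm38 genome. The lower-case part is the last 15 bases of the downstream exon, and the capitals are the first 15 bases of the upstream exon, to which it is joined.
circUck2 (exons 2 to 4, chr1:167234692-167237648, minus strand): gtctgtctcgccgagTCTTCCGTTTGTGCT
circPtpn14 (exons 2 and 3, chr1:189786636-189798681, plus strand): gcaggaggccacaagCTGTCCGGCAGAGAG
circRev1 (exons 7 to 22, chr1:38053616-38085652, minus strand): aaaatacatgaaaagGCACTATGTCAGTGT
circRps6kc1 (exons 3 to 5, chr1:190885334-190899571, minus strand): agtgcggtactgaagATAATTGTGTGGAGG
circRps6kc1 (exons 3 to 6, chr1:190871592-190899571, minus strand): tagaaggtgtacaagATAATTGTGTGGAGG
circKlf7 (exon 2, chr1:64078707-64079334, minus strand): agaggactcacacagACATGCCTTGAGTTG

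All 6, and 6 others named below, were flanked in the genome by the ag and gt of ordinary splice sites. The pair from Rps6kc1, which encodes a kinase-like protein, starts at the same exon, so their capitals are the same, and differs in the exon that is joined to it. circRps6kc1 of exons 3 to 5 had junction counts of 49 and 47 in WT, and of 72 and 28 in KO. The circle of exons 3 to 6 had 69 and 58 in WT and 23 and 21 in KO, and these do not overlap (log2 fold change -1.48 ± 0.55 SE, edgeR quasi-likelihood test, adjusted p = 0.0933).

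The most abundant circle, circUck2, from the gene of uridine-cytidine kinase 2, had junction counts of 95 and 71 in WT, and of 135 and 42 in KO. The KO libraries enclosed the WT values. circPtpn14, from a protein tyrosine phosphatase gene, had 74 and 75 in WT and 56 and 48 in KO. circRev1, from the gene of a translesion DNA polymerase, had 59 and 57 in WT and 74 and 25 in KO, and circKlf7, from a transcription factor gene, 41 and 39 in WT and 51 and 15 in KO. The KO libraries of circUck2, circRev1 and circKlf7 differed from each other by more than the genotypes did.

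Before any genotype difference is read, the libraries need to be compared with each other. Over the 781 chromosome 1 circRNAs, Spearman's rho was 0.746 between the WT libraries and 0.716 between the KO libraries, but -0.0481 to 0.0395 between a WT and a KO library. The same held over all chromosomes. Counts of single circles in WT did not rank like those in KO, though the lists of circles were nearly the same, and the origin of this was not tested.

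No chromosome 1 circRNA passed the edgeR test after adjustment over the 8903 circRNAs tested, as was so for all chromosomes (percent called 0), and none passed in DESeq2. The smallest adjusted p was 0.0580. At an unadjusted p under 0.05 there were 260 of 658 chromosome 1 circRNAs in edgeR, 144 higher and 116 lower in KO, and 56 in DESeq2. The shares at that p over all circRNAs were 38.2% in either direction, 19.9% higher and 18.4% lower, against 39.5%, 21.9% and 17.6% on chromosome 1. WT and KO libraries did not overlap for 69.8% of the chromosome 1 circRNAs and 70.3% of all. The number called depended on the settings: with edgeR's RLE size factors 134 were called, 73 of them higher and 61 lower. An exact permutation test of 2 against 2 libraries cannot give a two-sided p below 0.333.

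The circles with the smallest p were low in counts. Their junctions are given because no sequence but these bases marks them.
circFhl2 (exons 2 to 5, chr1:43128244-43153254, minus strand): ccaaccccattagtgATTGCTGAAAGACAG
circAtg16l1 (exons 15 to 18, chr1:87786241-87790687, plus strand): ttcaaaacagcacagGCATAAAAACAGTGT
circErcc5 (exons 7 and 8, chr1:44163877-44167882, plus strand): aaagcgagtctgatgGAGTCTAATGACTTT
circAtf6 (exons 5 to 7, chr1:170834820-170841812, minus strand): agtatgggttcggatGAGGAGTTGGATTTG
circPhlpp1 (exons 11 to 14, chr1:106364241-106380422, plus strand): gggagtaaaaaacaaCCTGAGATTCCTGAA
circPhlpp1 (exons 11 and 12, chr1:106364241-106369176, plus strand): ctcccagaagtcaagCCTGAGATTCCTGAA

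circFhl2, from the gene of a LIM domain protein, was counted 1 and 1 times in WT, and 13 and 15 times in KO, a ratio of 14.6 with a 95% counting interval of 3.67 to 126. circAtg16l1, from an autophagy gene, had 1 and 1 in WT and 12 and 7 in KO, a ratio of 9.88 with an interval of 2.38 to 87.5. circErcc5, from a repair nuclease gene, had 0 and 0 in WT and 7 and 4 in KO. Set against a floor of 3 counts over the WT group, it was 3.82-fold higher in KO. Ratios against this floor leave out the counting error of the other group. None of these passed the test after adjustment.

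In the other direction, circAtf6, from the gene of a sensor of endoplasmic reticulum stress, was counted 13 and 12 times in WT, and 0 times in both KO libraries. Against the floor of 3 counts it was 8.01-fold lower in KO. The circPhlpp1 circles, from a phosphatase gene, were counted 13 and 9 times in WT against 0 and 1 in KO for exons 11 to 14, and 5 and 6 times in WT against 0 in both KO libraries for exons 11 and 12. The ratio of the first was 21.2 with an interval of 3.42 to 873, and the other was 3.52-fold lower in KO against the floor. Of these hosts, Fhl2 mRNA was higher in KO by 1.197 on the log2 scale and Atg16l1 mRNA was lower by 0.20, while the mRNAs of Ercc5, Atf6 and Phlpp1 did not pass.

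As a whole the circRNAs of chromosome 1 were not lower in the KO libraries. They took 6.84% (Wilson 95% interval 6.63 to 7.05) and 7.08% (6.86 to 7.29) of the autosomal junction reads in WT, and 6.73% (6.53 to 6.94) and 7.18% (6.96 to 7.41) in KO. The means, 6.96% ± 0.170 and 6.95% ± 0.321 (SD, n = 2), differed by less than the spread within each genotype. The median log2 fold change over the 658 circles was 0.03, against -0.08 on the other autosomes. The difference, 0.11, did not keep its sign under other settings. Intervals of this kind cover counting error only, since the reads carried no molecular identifiers that the sources name. Counts of circles did not rank alike between the genotypes, and no lowering of chromosome 1 was simulated for circRNAs. Whether a shift like that of mRNA would show in these shares and medians was therefore not tested.

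The mRNA of a host and its circles showed no shared direction. Of the 658 circRNAs, 644 came from 238 hosts among the 900 genes. The 373 circles of hosts with lower mRNA had a median log2 fold change of 0.03, the 89 of hosts with higher mRNA -0.04 and the 182 of the other hosts 0.04. Spearman's rho between circle and host fold change was -0.00 over the 644 circles, many of which share a host, and 0.04 over the 238 hosts. In the first 30 Mb, where more mRNAs were higher than lower, the 59 circles had a median of -0.17, and the 599 beyond it 0.04. With counts this low, and with the libraries as unlike as described above, a shift of the size seen in mRNA was not detectable in single circles.

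**Figure D5:**
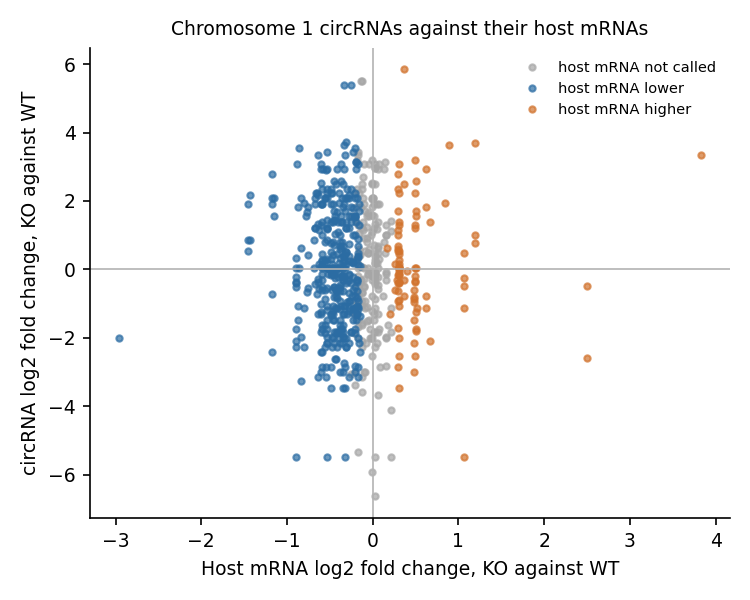
Log2 fold change in KO against WT of each chromosome 1 circRNA in whole-cell libraries (y axis) and of its host mRNA (x axis), colored by whether the host mRNA was lower, higher or not called. The circRNA values lie to both sides of 0 for all 3 groups of hosts, with medians of 0.03, -0.04 and 0.04.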

How the data were processed

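The 6 mRNA libraries and the 4 whole-cell circRNA libraries were used; the nuclear and cytoplasmic circRNA libraries were not used here. Per the file headers, the authors made the mRNA tables with featureCounts (version 2.0.0) after alignment to mm10 (GRCm38), with no strand option, and deposited raw read counts per gene. The circRNA tables hold the authors' deposited junction-read counts per circRNA from find_circ. Filters applied before deposit are not given in the sources used here.

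Genes needed at least 10 reads in at least 3 of 6 libraries, and circRNAs at least 10 reads summed over 4. Both were fitted across all chromosomes with edgeR (version 4.0.16, R 4.3.3; TMM, glmQLFit, glmQLFTest, genotype as the only term), adjusted after Benjamini and Hochberg, threshold 0.05. DESeq2 (version 1.42.0), other scalings, other filters, a replicate block and leaving out each library were the alternatives. Library deviations used log2(CPM + 0.5). Ratios with few reads have exact conditional 95% intervals, and a group at 0 was set to 3 counts. Named genes were the 8 largest rises and falls past the test without overlap and with a mean count of at least 50, the 6 with the highest FPKM and examples from the role lists. The circRNAs named were the 6 with the highest counts and the 3 with the smallest p in each direction. Gene models came from GENCODE vM21 and sequences from GRCm38.p6. The chromosome, the lists and the tests were chosen with earlier results of these data known.

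On simulated counts with the depth of the mRNA libraries, 99.5% of 2-fold changes were recovered in a fit of 14846 genes. A lowering of chromosome 1 by 0.2 on the log2 scale came back as -0.199. For the circRNA libraries 69% of 4-fold changes were recovered in a fit of 8903 circRNAs. In both, the changes were placed only in a sample of features with higher counts. The simulated spread was fixed and not estimated from these libraries. Recovery for features with low counts, or at the spread of the real libraries, was not measured. Same-numbered WT and KO libraries did not deviate together in mRNA (correlations 0.118, 0.0812 and -0.141), so the numbers were not used as pairs. Some items are not reported here.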

Additional observations from a re-analysis of the deposited data

How the results depend on the processing

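The difference of medians between chromosome 1 and the other autosomes in mRNA, -0.22, stayed under 0 in all the alternatives run. It was -0.27 with no filter, -0.26 in the low class of CPM, -0.24 beyond 30 Mb, -0.20 without chromosome 10 among the other autosomes and -0.23 to -0.21 with 1 library left out. The count of chromosome 1 genes called, 532, was 503 in DESeq2 (374 lower, 129 higher), 525 without the mitochondrial-like pseudogenes and 462 to 542 with 1 library left out (339 to 404 lower, 120 to 138 higher). Windows under the other autosomes numbered 17 of 20 at 10 Mb, 28 of 31 at 5 Mb, 9 of 10 at 20 Mb and 16 to 17 with 1 library left out. The difference in read share was -1.38 to -1.15 percentage points with 1 library left out. With the replicate block 533 genes were called (397 lower, 136 higher) and the median difference was -0.22. The boundary, the change of reference, the omission of pseudogenes and of list members with another role, and filterByExpr were chosen after seeing the data.

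For whole-cell circRNAs, where edgeR called 0 on chromosome 1, 134 were called with RLE size factors, 146 with no scaling beyond library size, 11 of 196 with at least 20 reads, 149 with the replicate block and 0 to 63 with 1 library left out. Over all chromosomes the shares were 20.6%, 22.5%, 6.77% and 23.1%, and the cause was not tested. The median difference of 0.11 was 0.0615 with the replicate block, -0.12 with at least 20 reads and -3.368e-05 to 0.0499 with 1 library left out. The difference in junction share, -0.00188 percentage points, was 0.0644 over circRNAs listed in all 4 libraries and -0.229 to 0.225 with 1 library left out. Where 1 library of a genotype was left, its spread was taken from the other genotype.

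Over all these settings no named gene or circRNA reversed. Of the named genes, 20 lost a call under at least 1 setting, among them Fn1, Bzw1 and Eif5b as above, Psmd1 without WT replicate 2, Ifi203 without KO replicate 1 and Gm38372 in DESeq2 (adjusted p = 0.0523). Single circles under 10 reads a library limit what can be seen in circRNAs.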

Other observations

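Kinds of transcript on chromosome 1 differed in their medians. The 698 protein-coding genes had a median log2 fold change of -0.20, against 0.03 on the other autosomes, with 329 lower and 115 higher. The 41 unverified transcripts had a median of -1.05 (23 lower, 1 higher), against -0.53 for 295 of them on the other autosomes. The 33 long intergenic RNAs had a median of -0.61 (17 lower, 3 higher), against -0.25 for 335. The 60 processed pseudogenes lay at -0.06, against -0.03 for 742. These kinds of transcript have low counts, and many overlap introns or exons of other genes.

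Another run of 9 consecutive genes that were lower in KO lay at chr1:160906418-161251219, from Rc3h1 to Prdx6. It held Gas5, a long noncoding RNA that hosts small nucleolar RNAs, at -0.43, and Cenpl, a centromere protein, at -0.62. Prdx6, a peroxiredoxin, had 309, 334 and 328 CPM in WT and 237, 249 and 240 in KO. The longest run of neighbours higher in KO outside the mitochondrial-like block held 5 genes, from Rdh10 to Tmem70, at 0.25 to 0.52. These runs were found after the values were seen, and their lengths were not tested.

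Of the 396 genes lower in KO, 297 fell by no more than 1 on the log2 scale and 99 by more. Of the 136 higher genes, 95 rose by no more than 1 and 41 by more. Between 0.25 and 0.5 on the log2 scale lay 143 lower and 45 higher genes, 15.9% and 5% of the 900, against 7.90% and 10.3% on the other autosomes.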
